A study of Hydra vulgaris with 113 samples.

Results

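The motifs of TCF transcription factors were followed through the first hours of Hydra regeneration by how open the chromatin around them was. Of 332 transcription factor motifs scored in ATAC-seq libraries, 3 have a name that starts with Tcf or TCF and carry the family tag HMG: TCFL2(HMG), Tcf4(HMG) and Tcf3(HMG). Their names give the mammalian ChIP experiments behind them, on TCF7L2 in K562 cells, on Tcf4 (an older name of the same human gene) in Hct116 cells, and on Tcf3 (an older name of Tcf7l1) in mouse embryonic stem cells. Motifs such as Tcf12 and Tcf21 share letters of the name but carry the tag of another DNA-binding family, and were not taken. All 3 motifs were scored in every library. The motif letters are in none of the files used here, so no sequence is shown. The Hydra protein that occupies such sites was not measured.

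TCF proteins are the DNA-binding end of canonical Wnt signalling and bind DNA through an HMG box. When a Wnt ligand is received, β-catenin is stabilised, enters the nucleus and joins TCF on its sites to activate transcription, while without it TCF commonly works with co-repressors. In Hydra the Wnt pathway is known for its role in the head organiser, at the oral end of the adult polyp and where a new head forms. iCRT14 is a small molecule made to block the contact of β-catenin with TCF.

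Polyps of Hydra vulgaris strain 105 were cut across mid-body, and the tips that regenerate a head or a foot were collected 0, 3, 8 or 12 h later. Animals were untreated or kept in 5 µM iCRT14 from 2 h before the cut until collection, so the 0 h iCRT14 tips had also been exposed to the inhibitor. The 2 sides, 4 times and 2 treatments make 16 groups of 3 to 5 biological replicates, 71 libraries in all. Each library pooled 15 tips, a piece of body column with its mixture of cell types. In such bulk samples, a change in the share of a cell type and a change within cells cannot be told apart.

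The value used throughout is the deposited deviation score, 1 number per motif and library, which is relative to the libraries of the same table. A higher score is read as more accessible peaks with that motif than in the other libraries. The scale was not stated, so scores are compared as differences and never as folds. Totals of counts in peaks ran from 4.73 to 42.3 M (mega) counts per library, with a median of 13.6 M, and were uneven between groups. The median was 37.6 M in untreated head tips at 3 h, 15.9 M at 8 h and 8.62 M at 12 h, against 7.82 M in iCRT14 head tips at 8 h and 12.3 M at 12 h. Head and foot tips of the same time and treatment were closer in depth, with group medians of 15.9 and 16.2 M at 8 h and 8.62 and 9.53 M at 12 h without inhibitor. Comparisons below are from limma on all 332 motifs and 71 libraries, two-sided, with Benjamini-Hochberg adjustment over the 332 motifs, and a motif is called at an adjusted p below 0.05.

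**Figure D1:**
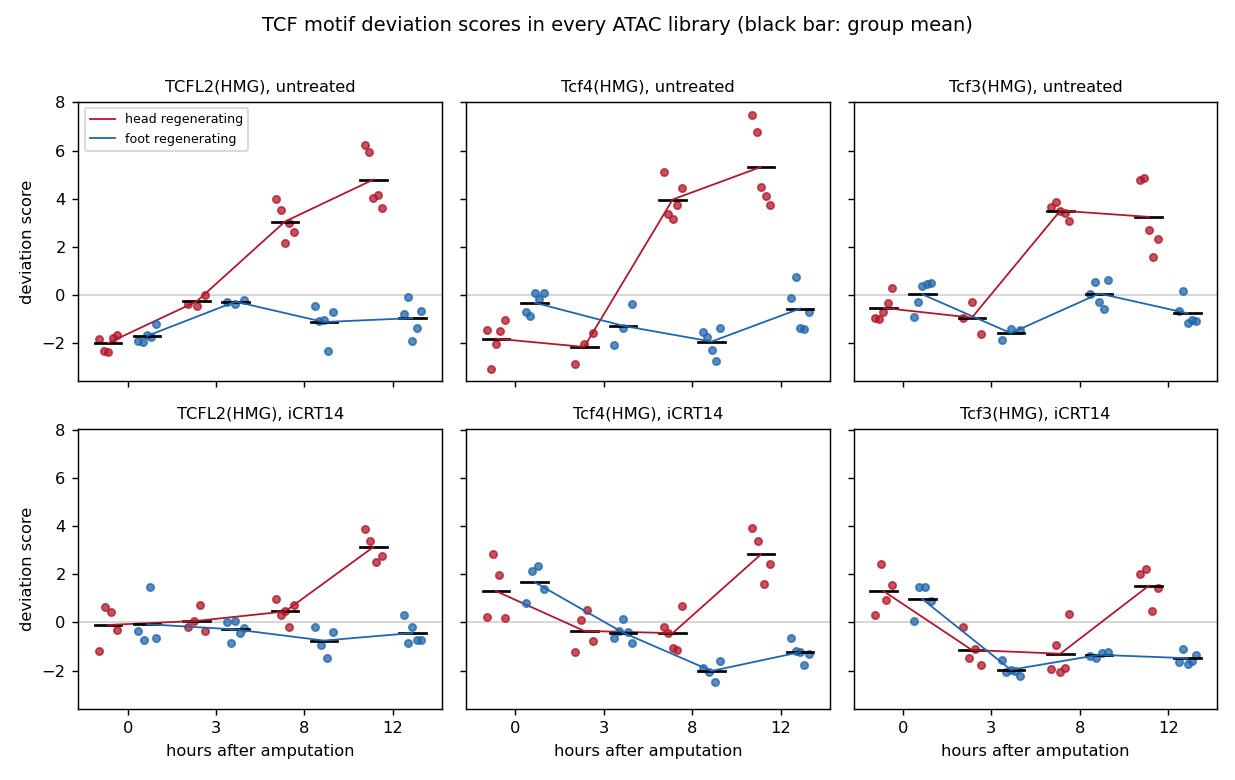
Deviation score of each TCF motif (columns) in untreated and iCRT14 libraries (rows) against hours after amputation; each point is 1 library, black bars are group means and colours separate head and foot tips. In untreated head tips the means of the TCFL2, Tcf4 and Tcf3 motifs stand at 3.05, 3.97 and 3.51 at 8 h, and in iCRT14 head tips at 0.455, -0.443 and -1.30.

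All 3 TCF motifs stood far higher in head than in foot tips at 8 h and 12 h in untreated animals. At 0 h and 3 h no such gap was called. Some other fits called Tcf4 lower in head tips at 0 h, and a paired fit called Tcf3 lower too. In iCRT14 the gap was small or absent at 8 h, and large at 12 h. The sections that follow give the levels, then each comparison.

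At 0 h in untreated head tips the mean score was -1.99 ± 0.326 for TCFL2, -1.81 ± 0.786 for Tcf4 and -0.531 ± 0.543 for Tcf3 (SD, n = 5). In untreated foot tips at 0 h it was -1.69 ± 0.304, -0.314 ± 0.445 and 0.0305 ± 0.614 (SD, n = 5), in the same motif order. In iCRT14 at 0 h, head tips gave -0.105 ± 0.837, 1.30 ± 1.33 and 1.30 ± 0.906 (SD, n = 4), and foot tips -0.0730 ± 1.05, 1.67 ± 0.702 and 0.968 ± 0.657 (SD, n = 4). Both sides were thus higher with inhibitor than without it at the moment of the cut, for each of the 3 group means.

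At 3 h without inhibitor, head tips scored -0.263 ± 0.247 for TCFL2, -2.15 ± 0.651 for Tcf4 and -0.936 ± 0.665 for Tcf3 (SD, n = 3). Foot tips scored -0.271 ± 0.0796, -1.28 ± 0.865 and -1.58 ± 0.259 (SD, n = 3). In iCRT14, head tips scored 0.0633 ± 0.480, -0.352 ± 0.801 and -1.14 ± 0.679 (SD, n = 4), and foot tips -0.291 ± 0.372, -0.425 ± 0.370 and -1.96 ± 0.242 (SD, n = 5). No group mean at 3 h reached 0.1, so that none of the motifs was high at this time on either side.

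At 8 h without inhibitor, head tips scored 3.05 ± 0.719 for TCFL2, 3.97 ± 0.802 for Tcf4 and 3.51 ± 0.295 for Tcf3 (SD, n = 5). Foot tips stayed at -1.12 ± 0.724, -1.93 ± 0.570 and 0.0655 ± 0.513 (SD, n = 5). In iCRT14, head tips were at 0.455 ± 0.444, -0.443 ± 0.743 and -1.30 ± 1.02 (SD, n = 5), and foot tips at -0.753 ± 0.565, -2.01 ± 0.357 and -1.34 ± 0.122 (SD, n = 4). Untreated head tips were the only group above 1 at 8 h for any of the motifs.

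At 12 h without inhibitor, head tips scored 4.80 ± 1.21 for TCFL2, 5.32 ± 1.69 for Tcf4 and 3.25 ± 1.49 for Tcf3 (SD, n = 5). Foot tips scored -0.956 ± 0.700, -0.561 ± 0.909 and -0.755 ± 0.549 (SD, n = 5). In iCRT14, head tips scored 3.13 ± 0.609, 2.83 ± 1.02 and 1.52 ± 0.781 (SD, n = 4), and foot tips -0.440 ± 0.493, -1.23 ± 0.400 and -1.48 ± 0.259 (SD, n = 5). Head tips were the high groups in both treatments at this time.

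Ordered by mean, untreated head tips at 12 h and 8 h and iCRT14 head tips at 12 h were the top 3 of 16 groups for every TCF motif. For Tcf4 and TCFL2 untreated head tips at 12 h came first. For Tcf3 the 8 h group came first, and the 12 h mean differed from it by -0.260, within the spread of the libraries. Most neighbours in these orders overlapped in their libraries, 15 of 15 neighbouring pairs for Tcf3 and 14 of 15 for Tcf4 and TCFL2. The exception for TCFL2 lay between untreated and iCRT14 head tips at 8 h, and that for Tcf4 between iCRT14 head tips and untreated foot tips at 0 h. The lowest group differed between motifs: untreated head tips at 0 h for TCFL2, untreated head tips at 3 h for Tcf4, and iCRT14 foot tips at 3 h for Tcf3.

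Head and foot tips of untreated animals were compared at each time. At 8 h the libraries of the Tcf4 motif were at 5.11, 3.37, 3.18, 3.74 and 4.44 in head tips and at -1.52, -1.75, -2.27, -2.74 and -1.36 in foot tips. Those of TCFL2 were at 3.98, 3.52, 2.16, 2.98 and 2.63 in head tips against -0.451, -1.07, -1.04, -2.33 and -0.700 in foot tips. Those of Tcf3 were at 3.66, 3.88, 3.50, 3.41 and 3.08 against 0.0356, 0.538, -0.267, -0.586 and 0.607. For each of the 3 motifs the lowest head library stood above the highest foot library, as it did for 14.5% of all motifs. For each motif that space was wider than the range within either group.

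The 8 h difference was 5.90 for Tcf4 (SE 0.526, adjusted p = 2.93e-14), 4.17 for TCFL2 (SE 0.410, adjusted p = 1.0e-12) and 3.44 for Tcf3 (SE 0.438, adjusted p = 5.17e-09). All 3 motifs were called higher in head tips, where 26.8% of the 332 motifs were called higher in that comparison and 58.4% in either direction. The count alone therefore says little, and the size says more: Tcf4 had the largest head excess of all motifs, TCFL2 ranked 3 and Tcf3 ranked 11. The median difference over all motifs was -0.0295.

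At 12 h the Tcf4 motif was at 7.50, 6.77, 4.48, 4.12 and 3.76 in untreated head tips and at -0.136, 0.771, -1.37, -1.39 and -0.685 in foot tips. TCFL2 was at 6.24, 5.95, 4.05, 4.15 and 3.60 in head tips against -0.770, -0.0914, -1.91, -1.36 and -0.643. Tcf3 was at 4.79, 4.85, 2.71, 1.57 and 2.31 against -0.639, 0.158, -1.18, -1.05 and -1.07. Again no head library of the 3 motifs came down to the foot libraries, which held for 18.1% of all motifs. In each motif the same 2 head libraries, replicates 1 and 2, stood above the other 3. They were also the deepest of that group, with 13.8 and 12.6 M counts against 6.87 to 8.62 M. Foot replicates 1 and 2 were likewise the deepest of their group, at 14.4 and 12.9 M counts. They were the highest foot libraries for Tcf4 and Tcf3. For TCFL2 the last foot library, at -0.643, stood above the first, at -0.770. The part of depth in these splits was not tested.

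The 12 h difference was 5.88 for Tcf4 (SE 0.526, adjusted p = 3.20e-14), 5.75 for TCFL2 (SE 0.410, adjusted p = 3.04e-18) and 4.00 for Tcf3 (SE 0.438, adjusted p = 5.44e-11). They ranked 2, 4 and 6 of 332 by head excess, behind the bZIP motif Atf1(bZIP) at 5.99. Of all motifs 23.8% were called higher and 47.3% in either direction. Without the 2 deepest head libraries the differences were 4.68, 4.89 and 2.95, with adjusted p = 3.46e-10, 3.60e-14 and 7.20e-07. The deep foot libraries were kept in that fit, and in every later one that left out the deep head libraries. Those foot libraries bear the replicate numbers of the head libraries left out, and at 12 h these numbers paired the sides. The fit did not use this pairing.

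**Figure D2:**
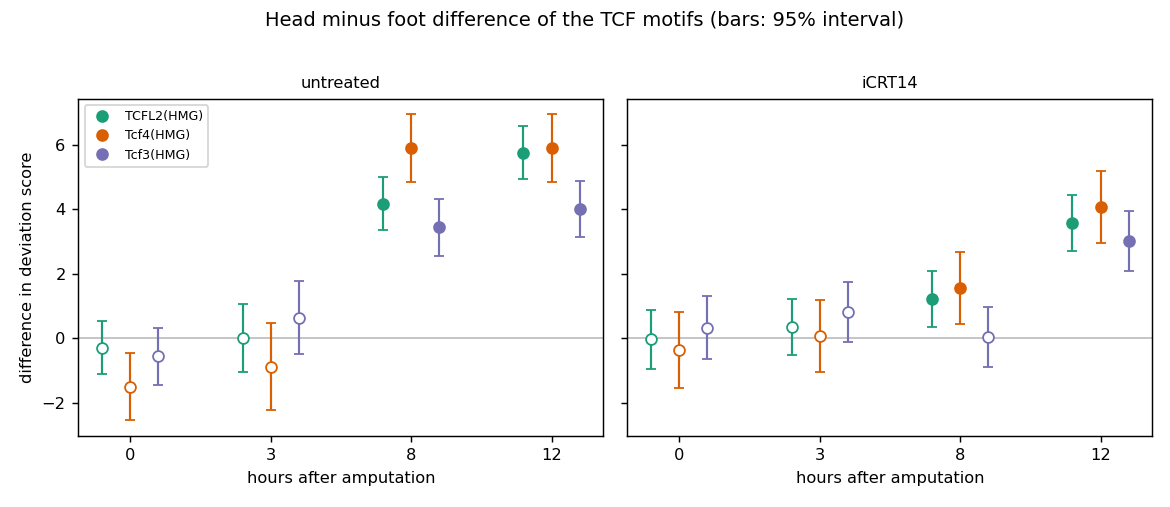
Head minus foot difference in deviation score against hours after amputation, untreated at left and iCRT14 at right; points are estimates from all libraries, bars their 95% intervals, and filled points are called at an adjusted p below 0.05. Untreated differences at 8 h run from 3.44 to 5.90, and the iCRT14 ones from 0.05 to 1.57.

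At 0 h no TCF motif had a higher mean in untreated head than in foot tips. The difference was -1.49 for Tcf4 (95% interval -2.54 to -0.441, adjusted p = 0.0754), -0.562 for Tcf3 (-1.44 to 0.314, adjusted p = 0.481) and -0.295 for TCFL2 (-1.12 to 0.526, adjusted p = 0.724). None was called in the fit of all groups, where 6.93% of motifs were. The Tcf4 libraries ran from -3.06 to -1.01 in head and from -0.859 to 0.0805 in foot tips, and did not overlap, with the head side lower, as for 7.53% of all motifs. At this time the replicate numbers paired the head and foot libraries. With the number as a block the lower head score was called for Tcf4 (adjusted p = 6.72e-05) and for Tcf3 (adjusted p = 0.0393). That fit, of only those groups, called 132 motifs in either direction, against 23 in the fit of all groups. A fit of only those groups with no block called 82, Tcf4 among them. Calls were thus far more common in both of these fits. Tcf4 was also called with depth in the model.

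At 3 h the untreated sides differed by 0.643 for Tcf3 (95% interval -0.487 to 1.77, adjusted p = 0.563), by -0.875 for Tcf4 (-2.23 to 0.481, adjusted p = 0.498) and by 0.00767 for TCFL2 (-1.05 to 1.07, adjusted p = 0.990). None was called, against 4.52% of all motifs, and the groups overlapped for all 3. With 3 libraries a side the intervals were wide, and differences of about 1 were not detectable at this time.

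The head and foot gap itself was tested for change since 0 h. At 8 h it had grown by 7.39 for Tcf4 (SE 0.743, adjusted p = 7.25e-12), by 4.47 for TCFL2 (SE 0.580, adjusted p = 1.58e-08) and by 4.00 for Tcf3 (SE 0.619, adjusted p = 9.06e-07). At 12 h it had grown by 7.38, 6.05 and 4.56, the ranks 1, 2 and 3 of all 332 motifs. Of all motifs 15.4% were called higher at 8 h and 9.94% at 12 h. At 3 h none of the TCF motifs and none of the 332 motifs was called (limma, 0%). From 8 h to 12 h the gap did not pass the test of change for any of them, with 1.58 for TCFL2 (adjusted p = 0.0848), 0.560 for Tcf3 (adjusted p = 0.666) and -0.0125 for Tcf4 (adjusted p = 0.999), where 6.93% of motifs were called. For TCFL2 it was called with depth in the model (1.67, adjusted p = 0.0479), with scores divided by the library SD (1.15, adjusted p = 0.0414), in the untreated table (1.88, adjusted p = 0.0315) and in 4 of 20 fits that left out 1 library. Without the 2 deepest head libraries, and with the deep foot ones kept, it was 0.716 (adjusted p = 0.493).

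**Figure D3:**
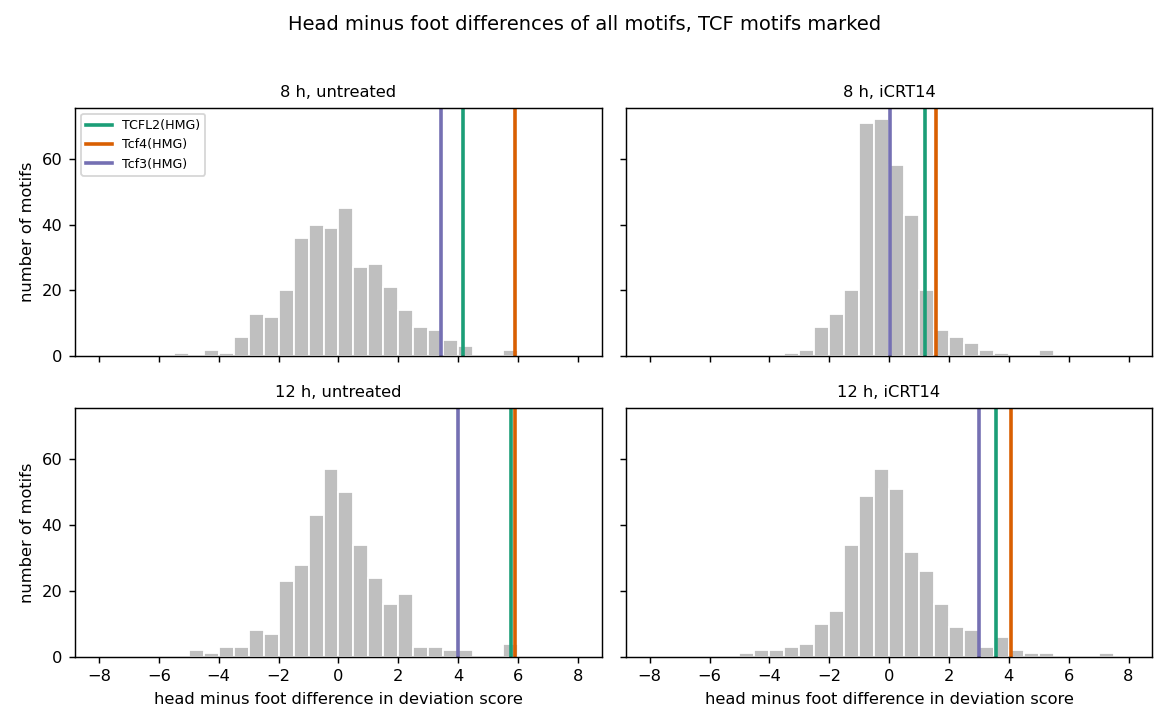
Number of motifs (y axis) by head minus foot difference in deviation score (x axis, bins of 0.5) for all 332 motifs at 8 h and 12 h, untreated and iCRT14; vertical lines mark the TCF motifs. In untreated tips Tcf4 lies at 5.90 at 8 h and 5.88 at 12 h, at the right edge of all motifs, and in iCRT14 at 8 h Tcf3 lies at 0.05, in the middle.

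The course over time within untreated head tips was next followed. Comparisons with 0 h share the 0 h libraries and are not independent of each other. From 0 h to 3 h only TCFL2 rose, by 1.73, while Tcf4 moved by -0.344 (adjusted p = 0.649) and Tcf3 by -0.404 (adjusted p = 0.505). A rise was called for 33.7% of motifs over these hours. From 3 h to 8 h all 3 rose, Tcf4 by 6.12 (SE 0.607, adjusted p = 7.01e-13), Tcf3 by 4.44 (SE 0.506, adjusted p = 5.92e-11) and TCFL2 by 3.32 (SE 0.474, adjusted p = 2.42e-08). They ranked 1, 4 and 10 of all motifs in that step, in which 22% of motifs were called higher. The main rise of the TCF motifs in head tips thus fell between 3 h and 8 h.

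From 8 h to 12 h in untreated head tips, TCFL2 rose by 1.74 (SE 0.410, adjusted p = 0.000531) and Tcf4 by 1.35 (SE 0.526, adjusted p = 0.0343), with 19.9% of motifs called higher. Tcf3 moved by -0.260 (adjusted p = 0.666). These late steps rested on the 2 deepest 12 h libraries: without them TCFL2 moved by 0.878 (adjusted p = 0.101) and Tcf4 by 0.149 (adjusted p = 0.860), and Tcf3 fell by 1.31 (adjusted p = 0.0151). The steps were larger with depth in the model, at 2.36 for TCFL2 (adjusted p = 5.64e-05) and 2.68 for Tcf4 (adjusted p = 6.26e-05). The Tcf4 step was not called in the untreated table (1.40, adjusted p = 0.0538), in a fit of only those groups (adjusted p = 0.199) or in 5 of 10 fits that left out 1 library, and foot tips held a step of Tcf4 as large. Against 0 h, the 12 h scores were higher by 7.13 for Tcf4, 6.79 for TCFL2 and 3.78 for Tcf3, with 35.2% of motifs called higher.

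In untreated foot tips no step was a called rise of all 3 motifs. From 0 h to 3 h Tcf3 fell by 1.61 (SE 0.506, adjusted p = 0.00439), from libraries at -0.916 to 0.504 down to -1.88, -1.42 and -1.44. Over these hours 28.9% of motifs were called lower. Tcf4 moved by -0.961 (adjusted p = 0.159), and TCFL2 rose by 1.42 (adjusted p = 0.00703), with 37% of motifs called higher. From 3 h to 8 h Tcf3 rose again by 1.64 (SE 0.506, adjusted p = 0.00372), with 29.2% of motifs called higher. Tcf4 was 1.61 lower at 8 h than at 0 h (SE 0.526, adjusted p = 0.00854), beside 21.7% of motifs called lower, and was not called lower with library depth in the model (adjusted p = 0.0785). From 8 h to 12 h Tcf4 rose by 1.37 (SE 0.526, adjusted p = 0.0372), from -2.74 to -1.36 up to -1.39 to 0.771, with 18.1% of motifs called higher. That step was 2.50 with depth in the model (adjusted p = 9.20e-05), was not called in the untreated table (1.12, adjusted p = 0.115), and was lost in 4 of 10 fits that left out 1 library. Tcf3 moved by -0.820 (adjusted p = 0.149) and TCFL2 by 0.162 (adjusted p = 0.796) in this step. At 12 h no TCF motif was called against 0 h in foot tips, where 63.3% of motifs were, with differences of -0.785 for Tcf3 (adjusted p = 0.114), -0.247 for Tcf4 (adjusted p = 0.693) and 0.738 for TCFL2 (adjusted p = 0.112).

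The inhibitor was compared with no treatment within each side and time. In head tips at 8 h all 3 scores were lower in iCRT14. Tcf3 was at -1.94, -0.946, -2.04, -1.91 and 0.350 in iCRT14, Tcf4 at -0.198, -0.448, -1.08, -1.16 and 0.666, and TCFL2 at 0.982, 0.303, 0.456, -0.190 and 0.722. Every one of these values, as for 8.13% of all motifs, lies below the lowest untreated head library at 8 h, which was at 3.08, 3.18 and 2.16 for the same motifs. The last library, replicate 5, was the highest of the group for Tcf3 and Tcf4.

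The difference at 8 h was -4.80 for Tcf3 (SE 0.438, adjusted p = 1.47e-13), -4.41 for Tcf4 (SE 0.526, adjusted p = 4.32e-10) and -2.60 for TCFL2 (SE 0.410, adjusted p = 4.31e-07). Of all motifs 23.5% were called lower, and the TCF motifs ranked 2, 3 and 15 from the lowest end, where RFX(HTH) at -5.08 came first. The iCRT14 libraries were shallower, with a median of 7.82 against 15.9 M counts. With depth in the model Tcf4 was lower by -2.65 (adjusted p = 0.000349), Tcf3 by -3.96 (adjusted p = 4.90e-08) and TCFL2 by -1.78 (adjusted p = 0.00454).

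At 12 h head tips in iCRT14 were lower by -2.49 for Tcf4 (SE 0.557, adjusted p = 0.000271), -1.72 for Tcf3 (SE 0.465, adjusted p = 0.00240) and -1.66 for TCFL2 (SE 0.435, adjusted p = 0.00174), with 15.4% of motifs called lower. Libraries overlapped here. The 4 iCRT14 libraries of Tcf4 were at 3.91, 3.37, 1.60 and 2.44, those of TCFL2 at 3.87, 3.37, 2.52 and 2.77, and those of Tcf3 at 1.99, 2.22, 0.466 and 1.42. Only the first of them reached the untreated range for Tcf4 and TCFL2, and the first 2 for Tcf3. The untreated group held the 2 high, deep libraries described above, and without them no motif was called: the differences were -1.29 for Tcf4 (adjusted p = 0.0697), -0.801 for TCFL2 (adjusted p = 0.171) and -0.676 for Tcf3 (adjusted p = 0.268). The iCRT14 libraries, at 11.1 to 14.6 M counts, were close in depth to those 2, at 13.8 and 12.6 M. The untreated libraries kept were shallower, at 6.87 to 8.62 M. That fit thus took out the highest untreated scores and left the groups more uneven in depth. With depth in the model all 3 motifs stayed called. The part of depth was not tested.

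**Figure D4:**
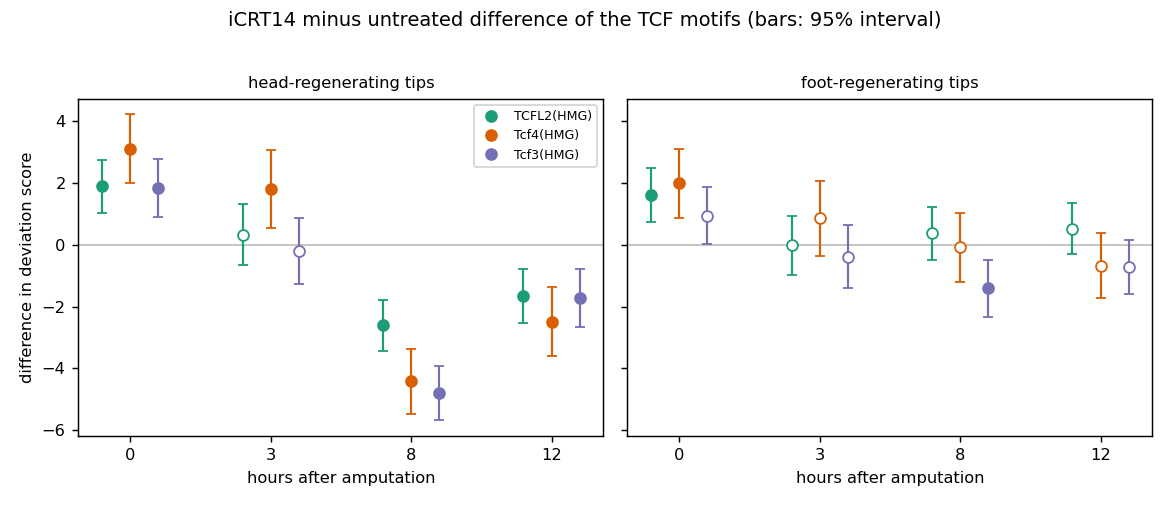
iCRT14 minus untreated difference in deviation score against hours after amputation, head tips at left and foot tips at right; points are estimates from all libraries, bars their 95% intervals, and filled points are called at an adjusted p below 0.05. In head tips the estimates run from 1.83 to 3.11 at 0 h and from -4.80 to -2.60 at 8 h.

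At 0 h the sign was the opposite. Head tips of animals that had spent 2 h in iCRT14 scored higher for Tcf4 by 3.11 (SE 0.557, adjusted p = 3.40e-06), for TCFL2 by 1.88 (SE 0.435, adjusted p = 0.000207) and for Tcf3 by 1.83 (SE 0.465, adjusted p = 0.000649). The Tcf4 libraries were at 0.212, 2.84, 1.99 and 0.175 in iCRT14 and at -1.47, -3.06, -2.03, -1.47 and -1.01 without it, and did not overlap. Among all motifs 25.6% were higher without overlap. In foot tips at 0 h Tcf4 was higher by 1.98 (SE 0.557, adjusted p = 0.00217) and TCFL2 by 1.62 (SE 0.435, adjusted p = 0.00130), while Tcf3 differed by 0.938 (95% interval 0.00876 to 1.87, adjusted p = 0.0829). A higher score was called for 28% of motifs in head tips and 28.3% in foot tips at 0 h, so that the direction of the TCF motifs was not unusual here. By size they ranked from 17 to 57 of 332 in head tips. The side by treatment difference at 0 h was not called for any TCF motif, nor for any of the 332 motifs (0%).

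At 3 h the inhibitor comparison gave 1 call in head tips, Tcf4 higher by 1.80 (SE 0.635, adjusted p = 0.0193), where 17.8% of motifs were called higher. It was lost without untreated replicate 1 (1.45, adjusted p = 0.111) or without iCRT14 replicate 3 (1.51, adjusted p = 0.0731), and was larger with depth in the model (4.24, adjusted p = 1.33e-05), where untreated libraries were at a median of 37.6 and iCRT14 ones at 11.1 M counts. TCFL2 differed by 0.326 (adjusted p = 0.650) and Tcf3 by -0.209 (adjusted p = 0.826). In foot tips at 3 h the values were -0.0207 for TCFL2, 0.850 for Tcf4 and -0.386 for Tcf3, with adjusted p = 0.982, 0.277 and 0.568, where 39.8% of motifs were called. With depth in the model Tcf4 was called there too, at 3.47 (adjusted p = 0.000445).

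In foot tips at 8 h Tcf3 was lower in iCRT14 by -1.41 (SE 0.465, adjusted p = 0.00817), with libraries at -1.39, -1.49, -1.28 and -1.22, all below the untreated ones, as for 18.7% of all motifs. A lower score was called for 22.3% of motifs. With depth in the model it was -0.651 (adjusted p = 0.329). TCFL2 differed by 0.365 (adjusted p = 0.490) and Tcf4 by -0.0865 (adjusted p = 0.901), which turned to 1.5 with depth in the model (adjusted p = 0.0299), at median depths of 16.2 M without and 8.55 M with inhibitor. At 12 h foot tips differed by -0.730 for Tcf3, -0.673 for Tcf4 and 0.515 for TCFL2, none of them called (adjusted p = 0.195, 0.323 and 0.333), where 35.2% of all motifs were.

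Whether the inhibitor difference was unequal between head and foot tips was tested directly. At 8 h the inhibitor difference was lower in head than in foot tips by -4.32 for Tcf4 (SE 0.766, adjusted p = 0.000151), -3.39 for Tcf3 (SE 0.638, adjusted p = 0.000262) and -2.97 for TCFL2 (SE 0.598, adjusted p = 0.000396). These were the 3 lowest values of all 332 motifs, of which 5.42% were called lower. At 12 h only TCFL2 was called, at -2.18 (SE 0.598, adjusted p = 0.0204), and it was -1.32 (adjusted p = 0.179) without the 2 deep untreated head libraries. Tcf4 was at -1.82 (adjusted p = 0.156), which was called with depth in the model (-2.34, adjusted p = 0.0174), and Tcf3 at -0.993 (adjusted p = 0.382). Of all motifs 4.22% were called lower at 12 h. The part of depth in these differences was not tested further.

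The inhibitor difference of head tips thus turned from higher at 0 h to lower at 8 h, and this change was tested as well. It was -7.52 for Tcf4 (SE 0.766, adjusted p = 5.81e-12), -6.64 for Tcf3 (SE 0.638, adjusted p = 1.26e-12) and -4.48 for TCFL2 (SE 0.598, adjusted p = 8.83e-09), with Tcf4 the lowest of the 332 motifs and 22.6% called lower. At 12 h all 3 were again called, where 21.7% of motifs were called lower, and at 3 h Tcf3 alone, at -2.04 (adjusted p = 0.0203), where 18.4% were. In foot tips the change at 8 h was -2.35 for Tcf3 (adjusted p = 0.00315), -2.07 for Tcf4 (adjusted p = 0.0290) and -1.26 for TCFL2 (adjusted p = 0.0901), where 16.9% of motifs were called lower. TCFL2 was called at 3 h and Tcf3 and Tcf4 at 12 h, where 18.1% of motifs were called lower at each time. With depth in the model both 3 h calls were lost, at adjusted p = 0.238 for Tcf3 in head and 0.353 for TCFL2 in foot tips, and so was Tcf4 in foot tips at 8 h, at -1.45 (adjusted p = 0.0848). Leaving out single libraries also lost the 3 h calls and Tcf3 in foot tips at 12 h.

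Within iCRT14, no TCF motif was called between head and foot tips at 0 h or 3 h. The differences at 0 h were -0.365 for Tcf4 (adjusted p = 0.730), -0.0322 for TCFL2 (adjusted p = 0.977) and 0.335 for Tcf3 (adjusted p = 0.700), where 3.92% of motifs were called. At 3 h they were 0.0735, 0.355 and 0.820, with adjusted p = 0.991, 0.881 and 0.800, and no motif of the 332 was called (0%). At 8 h Tcf4 was higher in head tips by 1.57 (SE 0.557, adjusted p = 0.0440) and TCFL2 by 1.21 (SE 0.435, adjusted p = 0.0477), while Tcf3 differed by 0.0465 (95% interval -0.882 to 0.975, adjusted p = 0.949). The foot libraries of Tcf4 were at -1.91, -2.05, -2.48 and -1.62, below all head libraries, and those of TCFL2 at -0.205, -0.918, -1.47 and -0.416, also below all head libraries, which held for 7.23% of all motifs. Both calls sat close to the threshold, where 7.83% of motifs were called higher. Each was lost in 7 of 9 fits that left out 1 library, with adjusted p up to 0.126 for Tcf4 and 0.160 for TCFL2.

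At 12 h in iCRT14 all 3 motifs were higher in head than in foot tips. The difference was 4.06 for Tcf4 (SE 0.557, adjusted p = 6.04e-08), 3.57 for TCFL2 (SE 0.435, adjusted p = 4.14e-09) and 3.01 for Tcf3 (SE 0.465, adjusted p = 7.54e-07). They ranked 4, 10 and 14 of all motifs, of which 20.2% were called higher. Foot libraries were at -1.78 to -0.659 for Tcf4, -0.852 to 0.309 for TCFL2 and -1.72 to -1.09 for Tcf3, all below the lowest head library, which held for 16.6% of all motifs. Beside the untreated gaps of 5.88, 5.75 and 4.00, the gaps in iCRT14 were lower for each motif, a difference of which only that of TCFL2 passed the test given above.

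The change of the iCRT14 gap was also tested, in comparisons added after the scores were seen. From 0 h to 12 h it grew by 4.43 for Tcf4 (SE 0.810, adjusted p = 0.000148), 3.60 for TCFL2 (SE 0.632, adjusted p = 0.000122) and 2.67 for Tcf3 (SE 0.675, adjusted p = 0.00548), ranks 1, 3 and 13, with 5.12% of motifs called higher. From 8 h to 12 h it grew by 2.96 for Tcf3 (SE 0.657, adjusted p = 0.0100), the highest of all motifs, and by 2.37 for TCFL2 (SE 0.615, adjusted p = 0.0242), with 1.81% of motifs called higher. Tcf4 was at 2.49 (adjusted p = 0.0657). The call of TCFL2 was lost in 4 of 18 fits that left out 1 library.

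The gain in iCRT14 head tips fell in the last 4 h. From 0 h to 3 h Tcf3 fell by 2.45 (SE 0.490, adjusted p = 1.65e-05) and Tcf4 by 1.66 (SE 0.588, adjusted p = 0.0110), with 27.1% of motifs called lower. The fall of Tcf4 was lost without iCRT14 head replicate 2 at 0 h (-1.14, adjusted p = 0.0963) and with depth in the model (-0.473, adjusted p = 0.454). From 3 h to 8 h nothing moved past the test, with -0.0916 for Tcf4, -0.154 for Tcf3 and 0.391 for TCFL2 (adjusted p = 0.930, 0.821 and 0.513), where 22.9% of motifs were called. From 8 h to 12 h Tcf4 rose by 3.27 (SE 0.557, adjusted p = 2.11e-05), Tcf3 by 2.82 (SE 0.465, adjusted p = 1.45e-05) and TCFL2 by 2.68 (SE 0.435, adjusted p = 1.45e-05). All libraries at 12 h stood above all libraries at 8 h for each TCF motif, as for 5.12% of all motifs. Of all motifs 4.52% were called higher in this step, and the TCF motifs ranked 2, 4 and 5. Against 0 h, Tcf3 and Tcf4 were lower at 8 h by -2.60 and -1.75 (adjusted p = 2.27e-06 and 0.00503), with 28.6% of motifs called lower. There Tcf4 was at 0.166 with depth in the model. At 12 h TCFL2 was higher than at 0 h by 3.24 (adjusted p = 1.35e-08) and Tcf4 by 1.53 (adjusted p = 0.0194), with 36.7% of motifs called higher, and Tcf3 was not called (adjusted p = 0.704). The call of Tcf4 was lost in a fit of only those groups (adjusted p = 0.0636) and in 4 of 8 fits that left out 1 library.

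The step from 8 h to 12 h in head tips was set against the same step without inhibitor, a comparison added after the scores were seen. It was larger in iCRT14 by 3.08 for Tcf3 (SE 0.638, adjusted p = 0.000268), and by 1.92 for Tcf4 (adjusted p = 0.0645) and 0.935 for TCFL2 (adjusted p = 0.287), which were not called, where 12% of motifs were called higher. With depth in the model Tcf3 was at 1.95 (adjusted p = 0.115). Without the 2 deep untreated head libraries all 3 were called, at 4.13, 3.12 and 1.80, with adjusted p = 4.95e-07, 0.00116 and 0.0169. Those 2 libraries held the highest untreated scores at 12 h, so leaving them out could only make this difference larger.

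In iCRT14 foot tips Tcf3 and Tcf4 were lower than at 0 h at each later time. Tcf3 was lower than at 0 h by -2.93 at 3 h, -2.31 at 8 h and -2.45 at 12 h, and Tcf4 by -2.09, -3.68 and -2.90, with adjusted p from 1.52e-07 to 0.000824. In these comparisons, which share the 0 h libraries, 28.3%, 27.7% and 27.4% of motifs were called lower. Tcf4 fell again from 3 h to 8 h, by 1.59 (SE 0.557, adjusted p = 0.0197), with 16.6% of motifs called lower, and this was lost in 1 of 9 fits that left out 1 library. TCFL2 differed from 0 h by -0.218, -0.680 and -0.367, with adjusted p = 0.687, 0.191 and 0.455.

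How far the 3 motifs agree was looked at in group means, in single libraries and in their differences. Over the 16 group means Pearson's r was 0.886 for Tcf3 with Tcf4, 0.885 for Tcf4 with TCFL2 and 0.741 for Tcf3 with TCFL2. These are descriptions, since the groups share a score table and the motifs may match the same peaks. Among all 332 motifs Tcf4 was the nearest to both Tcf3 and TCFL2 by this measure, and the 2 others were the nearest to Tcf4. After Tcf4, Tcf3 was nearest to Sox2(HMG) at 0.743, and TCFL2 to the ETS motif PU.1(ETS) at 0.764 and to Isl1(Homeobox) at 0.756. PRDM1(Zf) had the lowest r with Tcf3 and Tcf4, at -0.841 and -0.864, and p53(p53) with TCFL2, at -0.844.

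**Figure D5:**
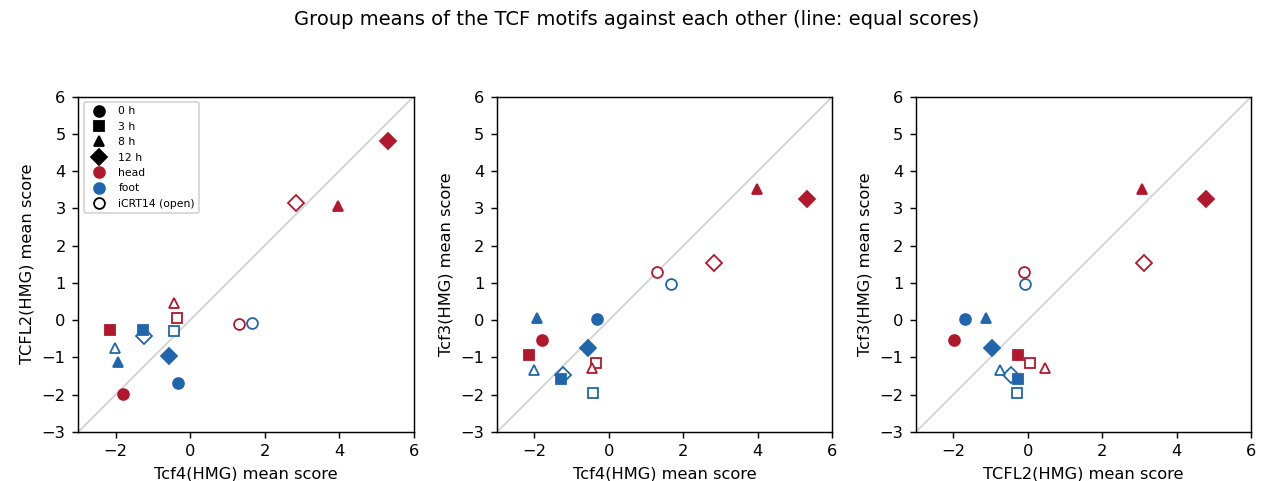
Mean deviation scores of the 16 groups for each pair of TCF motifs, with equal scales on both axes; the line marks equal scores, colour the side, shape the time and open symbols iCRT14. Untreated head groups at 8 h and 12 h and the iCRT14 head group at 12 h lie at the upper right in each panel. The iCRT14 head group at 8 h does not, with TCFL2 at 0.455, Tcf4 at -0.443 and Tcf3 at -1.30. The 0 h iCRT14 groups lie to the right of the line for TCFL2 against Tcf4. There TCFL2 is at -0.105 and -0.0730 and Tcf4 at 1.30 and 1.67.

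Single libraries of a group also deviated together. Over 71 libraries, with group means taken out, r was 0.779 for TCFL2 with Tcf4 (Spearman's rho 0.753), 0.679 for Tcf3 with Tcf4 (rho 0.584) and 0.557 for TCFL2 with Tcf3 (rho 0.487). Permutation within groups gave p = 1e-05, the smallest it can give, for the first 2, and p = 0.000240 for the last, with adjusted p = 2e-05, 2e-05 and 0.000288 over 6 relations. Without the 2 libraries farthest from the median, r was 0.765, 0.642 and 0.511. In the separate score table of the 36 untreated libraries r was 0.745, 0.809 and 0.586 in the same order. Libraries of a group differ in depth, and the part of depth in these relations was not tested.

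The motifs did not move by equal amounts. In exact two-sided permutation tests of their within-library difference, adjusted over 28 comparisons for each pair, 9 comparisons were called for TCFL2 minus Tcf4, 10 for Tcf3 minus Tcf4 and 10 for TCFL2 minus Tcf3. All lay close to the threshold, since 0.0444 was the lowest adjusted p that occurred, and no comparison with a group of 3 libraries passed it. Nor did any of 4 against 4 libraries, where the smallest exact p is 0.0286. The largest TCFL2 minus Tcf4 difference, 3.00 between 8 h and 0 h in iCRT14 foot tips, stood at that floor (exact test, adjusted p = 0.0667). The counts are thus set in part by group size and are not a full list of where the motifs differ. Tcf4 had the larger side gap at 8 h in untreated tips: TCFL2 minus Tcf4 was -0.913 ± 0.712 in head and 0.810 ± 0.331 in foot tips (SD, n = 5), and Tcf3 minus Tcf4 was -0.462 ± 0.916 in head and 1.99 ± 0.276 in foot tips (SD, n = 5, both exact p = 0.00794, adjusted p = 0.0444). Tcf3 had a smaller side gap than TCFL2 at 12 h, where TCFL2 minus Tcf3 was 1.55 in head and -0.201 in foot tips of untreated animals (exact p = 0.00794, adjusted p = 0.0444).

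The fall in iCRT14 head tips at 8 h was larger for Tcf3 than for TCFL2. TCFL2 minus Tcf3 was 1.75 with and -0.451 without inhibitor, a difference of 2.2 (exact p = 0.00794, adjusted p = 0.0444). TCFL2 minus Tcf4 differed there by 1.81 (exact p = 0.0159, adjusted p = 0.0494) and Tcf3 minus Tcf4 by -0.393 (exact p = 0.429, adjusted p = 0.462). In all 10 called comparisons of TCFL2 with Tcf3 the difference was positive. Such differences depended on the libraries a score is relative to. In the untreated table TCFL2 minus Tcf4 was 1.35 higher at 8 h than at 0 h in head tips (exact test, adjusted p = 0.0317), and in the table of all libraries the same difference was -0.731 (adjusted p = 0.167).

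The table of untreated libraries alone gave the side differences again, on scores scaled to other libraries. At 8 h the head excess was 5.15 for Tcf4, 3.88 for TCFL2 and 3.87 for Tcf3, ranks 3, 6 and 7, and at 12 h it was 5.43, 5.75 and 4.57, ranks 4, 2 and 5, with adjusted p from 7.89e-13 to 7.44e-08. These are the same libraries and are no independent support. In foot tips TCFL2 was called higher than at 0 h in that table at 8 h by 1.93 (adjusted p = 0.000194) and at 12 h by 1.69 (adjusted p = 0.000581), where the table of all libraries gave 0.576 and 0.738 and no call.

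The HMG tag is also carried by 7 Sox motifs, whose factors bind DNA through the same kind of domain. They did not share the head excess as a group at 8 h, and at 12 h some of them did. At 8 h in untreated tips 1 of the 7 was called higher in head tips, Sox2(HMG) at 2.35, and 3 were called lower, down to Sox4(HMG) at -2.09, with a median of -0.314. At 12 h 3 were called higher, again led by Sox2(HMG) at 3.02, and none lower, with a median of 0.156. In iCRT14 none was called at 8 h, and at 12 h 2 were called higher and 2 lower. These shares stand beside 26.8% and 23.8% of all motifs called higher at 8 h and 12 h without inhibitor, and 58.4% and 47.3% called in either direction. In iCRT14 7.83% and 20.2% of all motifs were called higher at 8 h and 12 h. There 51 and 131 of the 332 motifs were called in either direction. Some Sox motifs shared other changes of head tips. In iCRT14 against untreated head tips, 3 of the 7 were called lower and 1 higher at 8 h. At 12 h 3 were lower and none higher, with Sox4(HMG) at -4.08 the lowest of all motifs. Of all motifs 23.5% and 15.4% were called lower at these times. From 0 h to 12 h in untreated head tips 5 were called higher, led by Sox2(HMG) at 5.90, and 1 lower. A rise was called there for 35.2% of all motifs.

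The mean of the 3 TCF scores minus the mean of the 7 Sox scores was compared within libraries. At 8 h without inhibitor it was 3.18 ± 0.612 in head and -1.72 ± 0.790 in foot tips (SD, n = 5), a difference of 4.91. At 12 h it was 1.99 ± 1.5 in head and -2.29 ± 0.495 in foot tips (SD, n = 5), a difference of 4.29. In iCRT14 the difference was 1.00 at 8 h and 3.28 at 12 h. In each of the 4 comparisons all head libraries lay above all foot libraries. In the same order, single motifs did so for 14.5%, 18.1%, 7.23% and 16.6% of all motifs. No such share was taken for differences between sets of motifs. These means are given as a description, with no test.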

How the data were processed

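ATAC-seq of pooled regenerating tips was analysed; RNA-seq libraries (42) were not used here. Motif deviation scores for 332 motifs were used as the authors deposited them, 1 table for all 71 libraries and 1 for the 36 untreated ones; per the file headers the alignments had been shifted and the motifs carry Homer names. The scoring tool, the scale of the score and the genome build are not given in the sources used here. The submitters' processing notes name Trimmomatic 0.36, Bowtie2 2.2.6, Picard 2.17.8, SAMtools 1.2, deepTools 3.3.1 and DiffBind, with no roles. The deposited whole-number counts of reads in 115968 peaks gave library depth only; their smallest value was 1.

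Groups came from the sample titles, and no sample column was left unused. Scores were fitted with limma 3.58.1 (R 4.3.3), with 1 mean per group, default eBayes and no covariate, over all motifs and libraries. Differences of differences were contrasts of that fit. Differences between TCF motifs used exact permutation tests over libraries, those between TCF and Sox motifs are described only, and correlations used 100000 permutations within groups. The script was tested on simulated scores. Deviation scores carry no counts, so no counting interval was given.

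Members were all motifs whose name starts with Tcf or TCF and that carry the tag HMG. Other motifs named were the 5 highest and 2 lowest by correlation with a member, those ranked first in a comparison, and the extremes of the Sox motifs; some of these are given only in part. The members and lists were chosen with earlier results of these data known. A planned list of Wnt pathway genes was not used, since no gene model of the RNA table matched the gene names at hand.

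The labels call libraries biological replicates. Over 126 pairs of libraries within groups none held the same values, and chi-square divided by its degrees of freedom was at least 1.94. Replicate numbers were taken to pair libraries where every same-numbered pair's deviations correlated above 0.1, which held for head against foot at 0 h and 12 h untreated (r from 0.111 to 0.663 and from 0.197 to 0.543) and at 0 h in iCRT14 (0.109 to 0.498). Alternatives were a fit of only the groups compared, the replicate block, division by each library's SD, subtraction of its median, depth as a covariate, the untreated table, robust eBayes and leaving out single libraries; leaving out 2 deep libraries together, the tests with Tcf3 in pairs of motifs, the 8 h to 12 h contrasts of differences and the composite HMG motifs were added after the data were seen.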

Additional observations from a re-analysis of the deposited data

Results flagged for a closer look

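No library stood out from its group by Dixon's criterion in any of the 42 sets tested, of 4 or 5 libraries each. In all, 28 differences of differences passed their test (limma, adjusted p below 0.05 over 332 motifs) and are listed here as values.

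The change of the head and foot gap since 0 h without inhibitor was 4.00 for Tcf3(HMG), 7.39 for Tcf4(HMG) and 4.47 for TCFL2(HMG) at 8 h, and 4.56, 7.38 and 6.05 at 12 h. The inhibitor difference was lower in head than in foot tips at 8 h by -3.39, -4.32 and -2.97 in the same order, and at 12 h by -2.18 for TCFL2.

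In head tips the inhibitor difference had changed since 0 h by -2.04 for Tcf3 at 3 h, by -6.64, -7.52 and -4.48 for Tcf3, Tcf4 and TCFL2 at 8 h, and by -3.56, -5.60 and -3.55 at 12 h. In foot tips it had changed by -1.64 for TCFL2 at 3 h, by -2.35 for Tcf3 and -2.07 for Tcf4 at 8 h, and by -1.67 for Tcf3 and -2.66 for Tcf4 at 12 h. The 0 h groups that enter these differ by treatment themselves, with higher scores in iCRT14.

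In comparisons added after the scores were seen, the head and foot gap in iCRT14 had grown by 2.67 for Tcf3, 4.43 for Tcf4 and 3.60 for TCFL2 from 0 h to 12 h, and by 2.96 for Tcf3 and 2.37 for TCFL2 from 8 h to 12 h. The step of head tips from 8 h to 12 h was larger in iCRT14 by 3.08 for Tcf3.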

How the results depend on the processing

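The head excess at 8 h and 12 h untreated and at 12 h in iCRT14, and the lower head scores in iCRT14 at 8 h, were called for all 3 motifs under every alternative run. Scores carry no counts, and groups of 3 libraries at 3 h leave wide intervals there. The cause of the changes below was not tested.

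With depth as a covariate, 3 results changed sign: Tcf4(HMG) in iCRT14 minus untreated foot tips at 8 h (1.5), at 12 h minus 0 h in untreated foot tips (1.53) and at 8 h minus 0 h in iCRT14 head tips (0.166). Newly called were TCFL2(HMG) at 12 h in untreated foot (1.56) and 8 h in iCRT14 head tips (1.45) against 0 h, its treatment by time difference in foot tips at 12 h (-1.60), Tcf3(HMG) for iCRT14 in foot tips at 0 h (1.40), and Tcf4 at 3 h minus 0 h in foot tips (-1.74), head minus foot at 0 h (-1.70), iCRT14 in foot tips at 3 h (3.47), side by treatment at 12 h (-2.34), and the gap's change in iCRT14 from 0 h to 8 h (2.58). So were, for the last step, the untreated gap of TCFL2 (1.67) and treatment by time of Tcf4 in foot tips (-2.27). No longer called were the treatment by time difference of TCFL2 (foot, 3 h, -0.875), Tcf3 (head, 3 h, -1.22) and Tcf4 (foot, 8 h, -1.45), Tcf3 for iCRT14 in foot tips at 8 h (-0.651), and Tcf4 at 3 h in iCRT14 head (-0.473) and 8 h in untreated foot tips (-0.971) against 0 h, and Tcf3 for treatment by time in the last step of head tips (1.95).

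With each library's median subtracted, TCFL2 was called at 8 h in iCRT14 foot tips (-1.02) and for treatment by time in foot tips at 8 h (-1.49), but not at 3 h (-1.54). With scores divided by the library SD the last was -0.865 and not called, nor were Tcf3 for treatment by time in head tips at 3 h (-1.11) Tcf4 for iCRT14 in head tips at 3 h (0.949) and Tcf4 in the last step of untreated foot tips (0.727), while Tcf4 was called for side by treatment at 12 h (-1.41) and TCFL2 for the untreated gap from 8 h to 12 h (1.15).

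In fits of only the groups compared, Tcf4 was called for head minus foot at 0 h (-1.49), TCFL2 for treatment by time in head (-1.56) and Tcf3 in foot tips (-1.32) at 3 h, while TCFL2 for head minus foot in iCRT14 at 8 h (1.21), Tcf3 for iCRT14 in head tips at 12 h (-1.72) Tcf4 at 12 h in iCRT14 head tips (1.53) and Tcf4 in the last step of untreated head tips (1.35, also with the block) were not. The replicate block added calls of Tcf3 (-0.562) and Tcf4 (-1.49) for head minus foot at 0 h, where the numbers pair the libraries. Elsewhere they share only a number, and the block called Tcf3 for iCRT14 in foot tips at 0 h (1.06), Tcf4 for side by treatment at 12 h (-1.97) and for the iCRT14 gap from 8 h to 12 h (2.75), and TCFL2 for treatment by time in head tips at 3 h (-1.60). In the paired comparisons it changed no other call of a TCF motif.

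In the untreated table TCFL2 was called in foot tips at 8 h (1.93) and 12 h (1.69) and Tcf4 at 3 h (-1.76), and TCFL2 for the gap from 8 h to 12 h (1.88). Not called were, in foot tips, Tcf3 at 3 h (-1.15) and from 3 h to 8 h (1.21), and Tcf4 in the last step of head (1.40) and foot tips (1.12). Within-library differences in head tips changed sign there for TCFL2 minus Tcf4 at 8 h (1.35) and 12 h (1.60) and for Tcf3 minus Tcf4 at 8 h (0.147). Without the 2 deepest untreated head libraries of 12 h, the iCRT14 difference in head tips at 12 h was not called for Tcf3 (-0.676), Tcf4 (-1.29) or TCFL2 (-0.801), nor side by treatment for TCFL2 (-1.32), nor the last untreated head step for Tcf4 (0.149) or TCFL2 (0.878), while that of Tcf3 (-1.31) and treatment by time in the last step for Tcf4 (3.12) and TCFL2 (1.80) were. Those 2 libraries also held the highest scores of their group for each TCF motif, and the iCRT14 head libraries of 12 h were close to them in depth.

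Leaving out 1 library at a time gave these ranges where the call of a single TCF motif changed. Head minus foot in iCRT14 at 8 h ran from 1.29 to 1.75 for Tcf4 and from 0.968 to 1.39 for TCFL2. Tcf3 for iCRT14 in foot tips at 0 h ran from 0.701 to 1.24, and Tcf4 for iCRT14 in head tips at 3 h from 1.45 to 2.09. Against 0 h, foot tips at 12 h ran from 0.522 to 0.977 for TCFL2 and from -1.02 to -0.667 for Tcf3, and Tcf4 in iCRT14 head tips from -2.03 to -1.14 at 3 h, from -2.12 to -1.23 at 8 h and from 1.15 to 2.04 at 12 h. Treatment by time ran in foot tips from -1.87 to -1.13 (TCFL2, 3 h), from -1.56 to -0.739 (TCFL2, 8 h), from -2.35 to -1.85 (Tcf4, 8 h) and from -1.97 to -1.43 (Tcf3, 12 h), and in head tips at 3 h from -1.92 to -1.31 (TCFL2) and from -2.38 to -1.67 (Tcf3). For the last step, Tcf4 ran from 0.811 to 1.75 in untreated head and from 1.03 to 1.57 in foot tips and from 1.53 to 2.46 for treatment by time in head tips, the untreated gap of TCFL2 from 1.22 to 1.88, and the iCRT14 gap from 2.12 to 2.60 for TCFL2 and from 2.13 to 2.90 for Tcf4. Tcf4 from 3 h to 8 h in iCRT14 foot tips ran from -1.72 to -1.44. Exact tests between motifs lost calls more often, since fewer libraries raise the smallest p.

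Under the alternatives other than leaving out 1 library, counts of motifs called that the report uses moved by over 1.5 times for head minus foot at 0 h (23, from 15 to 132), 3 h (15, down to 0 in the fit of only those groups), iCRT14 at 0 h (13, up to 56) and 8 h (51, up to 88), for iCRT14 in head tips at 8 h (178, down to 86), for side by treatment at 8 h (28, down to 4) and 12 h (27, from 11 to 48), for the gap at 12 h against 0 h (78, up to 159) for the iCRT14 gap from 8 h to 12 h (9, down to 2), for untreated head tips from 3 h to 8 h (172, down to 53) and 8 h to 12 h (130, down to 76), for iCRT14 head tips from 3 h to 8 h (76, down to 35) and 8 h to 12 h (27, down to 9), for their step against the untreated one (72, down to 30), and for the untreated gap at 3 h (0, up to 2). Leaving out 1 library did so in 44 of 682 fits.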
